A study of Mus musculus with 24 samples.

Results

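The corpus callosum, a bundle of myelinated axons between the right and left hemispheres of the brain, was compared between mice of the cuprizone model and naive mice, all of which had received vehicle. Every gene in the deposited table was considered, and the comparison used 12 of the 24 RNA sequencing libraries of the study, 8 titled Cuprizone Vehicle and 4 titled Naive Vehicle. The other 12 came from mice given an inhibitor of Bruton's tyrosine kinase (BTKi), 8 cuprizone and 4 naive, and served here as a second set of libraries in which the same genes could be read. The study was a bulk experiment on dissected tissue, in which the inhibitor was given to some mice once disease had been induced. The labels give no strain, sex, age, cuprizone dose, length of feeding or recovery, and no vehicle composition. Whether each library is a different animal is not stated, so p-values reflect only how these samples vary, and that variation may be technical.

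Cuprizone is a copper chelator that is mixed into the chow of mice. Mature oligodendrocytes, the cells that wrap axons in myelin, die under it, while their precursors and the axons are largely spared and the blood-brain barrier stays closed to most blood cells. Microglia, the resident macrophages of the brain, then clear the myelin debris, and astrocytes enlarge around the lesion. In stressed cells the integrated stress response slows translation and raises a set of transcription factors and amino acid genes, and interferon signalling raises antiviral and antigen presentation genes through the STAT and IRF factors.

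Depth was even, with 29.6 to 30.8 M fragments per library as read from the spacing of the low values, so 1 fragment was worth about the same in each of the 12. FPKM is the number of fragments per length of gene and depth of library, and between 15074 and 15435 genes reached 0.5 FPKM. Markers of the expected tissue were present. Mbp, Mog and Mag of myelin, Gfap of astrocytes, Csf1r of microglia and Cldn5 of endothelium were at 9.07 FPKM or more in all 12 libraries. Neuronal RNA was abundant as well: Rbfox3, a nuclear protein of neurons, stood at 110.0 to 142 FPKM and Slc17a7, the vesicular glutamate transporter of cortical neurons, at 306 to 424 FPKM, so the dissected pieces held more than white matter. Xist was expressed in all 12 libraries (31.7 to 41.8 FPKM) and the Y-linked Ddx3y was listed at 0 in all 12.

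Some libraries stood apart in ways that touch the results below. Naive Vehicle 2 was rich in RNA of striatal neurons, the cells below the tract, with Drd2 at 24.6 FPKM against 6.25 to 11.8 FPKM in the other 3 naive libraries, and it also had the highest myelin levels. Cuprizone Vehicle 1, 4 and 7 held little RNA of the choroid plexus, the tissue that makes cerebrospinal fluid. Ttr, its transthyretin, was at 117, 26.0 and 31.7 FPKM in those 3, against 725 to 1469.9 FPKM in the other cuprizone libraries and 1114 to 1768 FPKM in the naive ones. Where a list's count of calls changed by more than 1.5 times without Naive Vehicle 2, without those 3 or without all 4, the other count is given beside it. In bulk tissue a lower level can come from fewer cells of a type or from less RNA per cell, and a higher level from more cells or more RNA per cell. These cannot be told apart here, for falls or for rises.

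Of 15216 genes tested, 2288 passed an adjusted p of 0.05 (15%), 1555 of them higher (10.2%) and 733 lower (4.82%) in cuprizone mice. Most of these differences were small: the median log2 change was 0.31 among the genes called higher and -0.36 among those called lower, where a log2 change of 1 is a doubling of FPKM + 0.5. Changes of at least 2-fold were found for 173 genes higher (1.14%) and 68 lower (0.447%). The 8 and the 4 libraries did not overlap for 1334 genes (8.77%), 901 of them higher (5.92%) and 433 lower (2.85%), and 1258 (8.27%) were also called. The excess of higher over lower calls depended on the scaling. Median ratio scaling gave 1229 higher against 978 lower calls, and quantile normalization 1205 against 1072. The median change of all genes was 0.0285 as deposited and 0.0014 and -0.0035 under those scalings, so small changes in either direction are read against a shift of that size.

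The response was spread over the range of expression, with 13.6% of the genes called among the 3804 least abundant genes and 16.1% among the 3804 most abundant. By gene class, 15.9% of protein-coding genes were called, 12.5% of 216 processed transcripts, 6.92% of 347 lincRNAs, 6.6% of 197 processed pseudogenes and 4.38% of 274 antisense RNAs. Of the genes changed at least 2-fold, 131 of the 173 higher and 39 of the 68 lower belonged to at least one of the 76 lists of known function described below. Some genes are in several lists, as Lgals3bp is in those of interferon effectors and of disease-associated microglia. Counts from different lists are therefore not independent. Along the first principal component, which carried 39.8% of the variance of the 12 libraries, naive libraries lay between -31.2 and -17.5 and cuprizone libraries between 4.82 and 23.5. The plot of change against level shows abundant myelin genes far below the line and microglial genes of low level far above it.

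**Figure D1:**
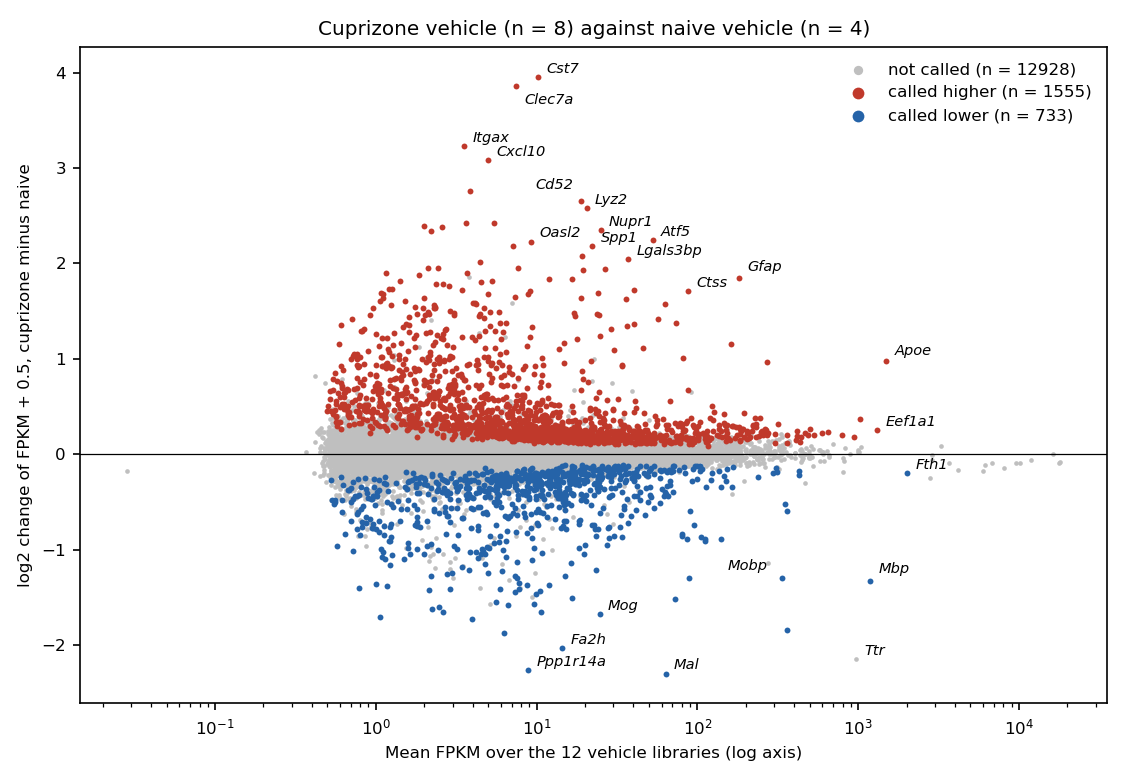
Each point is 1 of 15216 genes, with its mean FPKM over the 12 vehicle libraries (log axis) against its log2 change of FPKM + 0.5, cuprizone (n = 8) minus naive (n = 4), red where called higher (1555), blue where called lower (733) and grey otherwise. Labelled genes reach from Cst7, a log2 change of 3.96, to Mal, a log2 change of -2.30, and abundant Mbp lies far below the line.

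The mice given BTKi form a separate set of libraries that share no sample with the 12, only the model's estimate of spread. There the cuprizone effect had the same sign for 2045 of the 2288 genes (89.4%). Of the 2288, 874 (38.2%) were called in the same direction, where 7.87% of all genes were called in either direction. Another 5, Per1, Plk3, Klf10, Dusp5 and Dusp6, were called higher under vehicle and lower under BTKi. The vehicle call was lost in 3 of 22 alternative fits for Dusp5 and in 1 for Dusp6, and was kept in all 22 for Per1, Plk3 and Klf10. Among the genes at least 2-fold higher under vehicle, 165 of 173 (95.4%) were called higher again, and among those at least 2-fold lower 53 of 68 (77.9%) were called lower. The cuprizone effect itself differed between vehicle and BTKi for 19 genes (0.125%), and 15 of those were among the 2288.

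Among called genes, Mbp, Mobp, Fth1 and Pcp4 were among those with the largest losses in FPKM. Mbp, the basic protein that holds the layers of myelin together, stood at 1876, 2522, 1823 and 1757 FPKM in the naive libraries and 612 to 965 FPKM, median 793 FPKM, in the cuprizone libraries. The groups did not overlap, and the mean fell by 1200.7 FPKM in cuprizone mice (log2 change -1.33, SE 0.15, limma adjusted p = 1.1e-06). Mobp, another basic protein of the myelin membrane, fell by 332 FPKM. Fth1, the heavy chain of ferritin, fell by 282 FPKM, which on the log scale was a change of -0.20 with overlapping groups (adjusted p = 0.0287), and the call was lost in 9 of 22 alternative fits, among them those without Naive Vehicle 1 (adjusted p = 0.117), Naive Vehicle 2 (0.133), Cuprizone Vehicle 5 (0.0502) or Cuprizone Vehicle 6 (0.0517). After quantile normalization its change was -0.03 (adjusted p = 0.839). Pcp4, a calmodulin-binding peptide of neurons, was at 823 FPKM in Naive Vehicle 2 against 329 to 425 FPKM in the other naive libraries, and without that library its adjusted p was 0.254. Its call was lost in 8 of 22 alternative fits, those without Naive Vehicle 3 (adjusted p = 0.058), Cuprizone Vehicle 1 (0.06) and Cuprizone Vehicle 4 (0.0595) among them.

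The 5 largest gains in FPKM among called genes were of Apoe, Cst3, Eef1a1, Ctsd and Gfap. Apoe, the lipid carrier made by astrocytes and activated microglia, stood at 972, 966, 913 and 738 FPKM in the naive libraries and 1334 to 2603 FPKM, median 1622 FPKM, in the cuprizone libraries. All 8 cuprizone libraries lay above all 4 naive ones, a mean gain of 904 FPKM (log2 change 0.98, SE 0.15, limma adjusted p = 3.9e-05). Cst3, a secreted inhibitor of cysteine proteases, gained 248 FPKM, Eef1a1, a translation elongation factor, 221 FPKM, Ctsd, an aspartic protease of the lysosome, 177 FPKM and Gfap, the intermediate filament of astrocytes, 174 FPKM. Ctsd ranged among cuprizone mice from 194 to 728 FPKM.

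**Figure D2:**
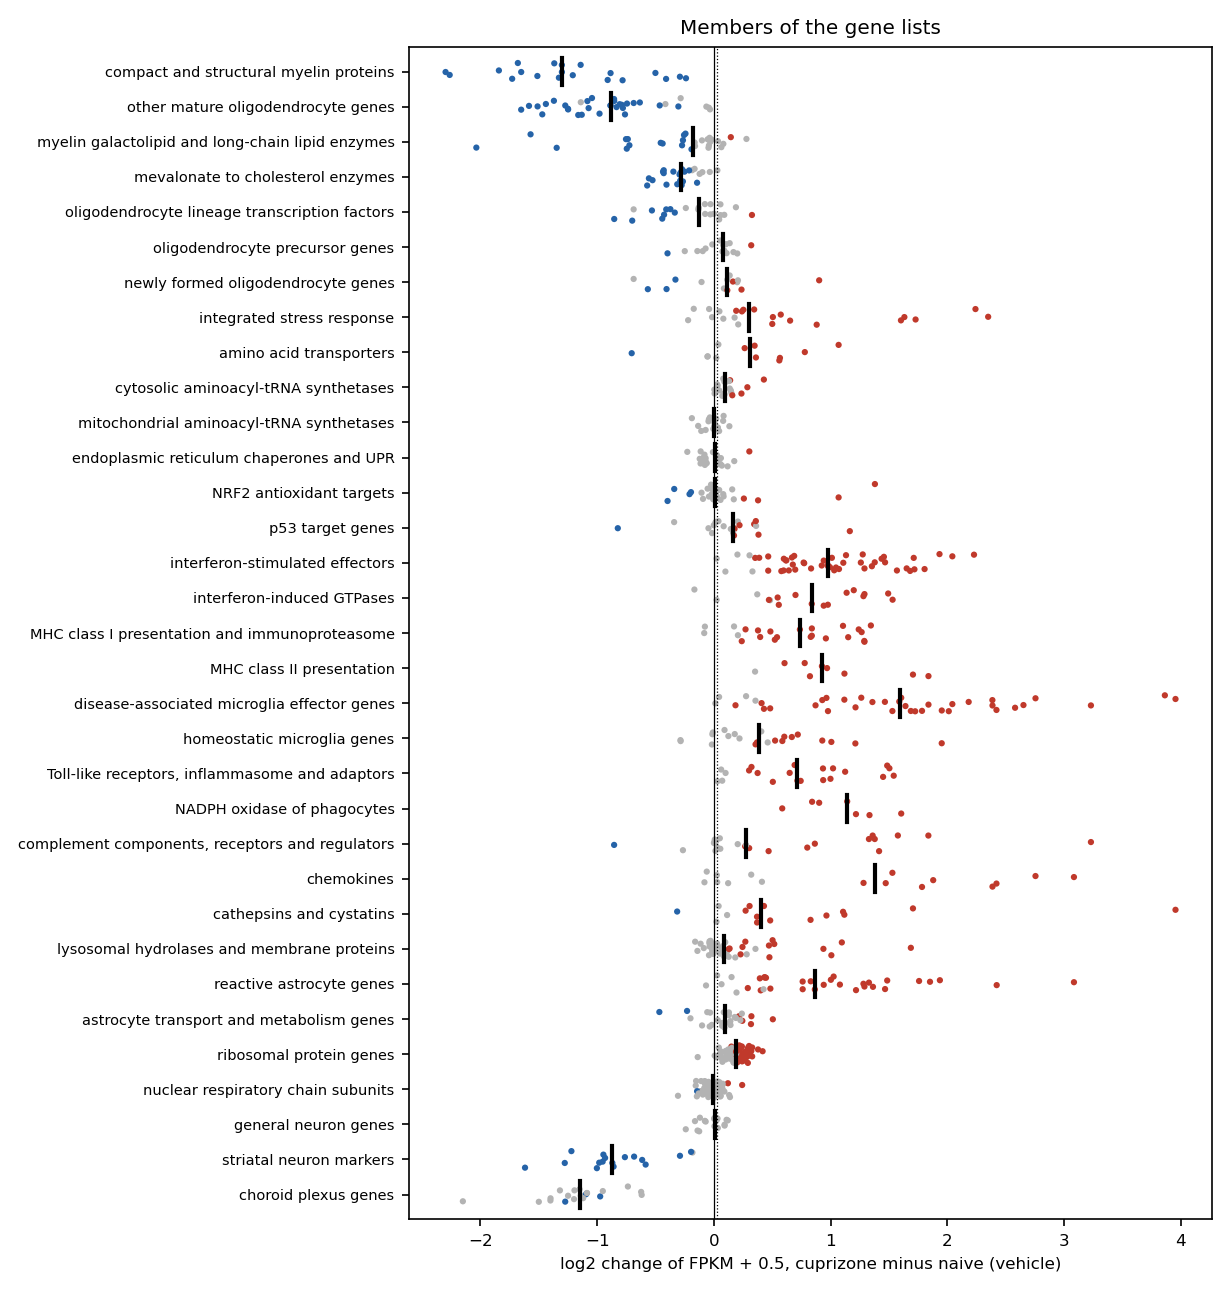
Each point is 1 tested member of a gene list, placed by its log2 change of FPKM + 0.5 (cuprizone minus naive, vehicle), red where called higher, blue where called lower and grey otherwise. Black bars mark list medians and the dotted line the median of all genes (0.0285). Myelin and cholesterol lists lie to the left, interferon, microglial and reactive astrocyte lists to the right, and mitochondrial synthetases, respiratory chain subunits and general neuron genes at the line.

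All 20 genes of compact and structural myelin proteins were called lower, where 4.82% of all genes were, with a median log2 change of -1.30. Their summed share of a library's FPKM was 0.915% ± 0.159 (SD, n = 4) in naive and 0.361% ± 0.0525 (SD, n = 8) in cuprizone mice. Mal, a proteolipid of compact myelin that sorts proteins to the sheath, stood at 139, 155, 121 and 125 FPKM in the naive libraries and 19.0 to 40.2 FPKM, median 27.4 FPKM, in the cuprizone libraries. The groups were well separated (log2 change -2.30, SE 0.20, limma adjusted p = 3.3e-08). Of 35 other genes of mature oligodendrocytes 29 were called lower and none higher, with a median of -0.88. Among them Adamts4, a protease that marks mature oligodendrocytes, fell by 1.25 on the log2 scale (adjusted p = 2.4e-07), S1pr5, the sphingosine phosphate receptor of the lineage, by 1.41 on the log2 scale (adjusted p = 1.4e-06) and Itgb4, the beta 4 integrin, by 1.41 on the log2 scale (adjusted p = 1.5e-06). Il33, a nuclear alarm cytokine that oligodendrocytes and astrocytes store, stood at 26.3, 38.4, 26.4 and 30.9 FPKM in the naive libraries and 12.0 to 17.5 FPKM, median 14.7 FPKM, in the cuprizone libraries. It was the one member of the cytokine list called lower, and its groups did not overlap (log2 change -1.04, SE 0.13, limma adjusted p = 3.8e-06).

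Of 28 genes for galactolipids and very long chain lipids 14 were called lower and 1 higher (2 higher without the 3 libraries poor in choroid plexus RNA or without all 4, and none under either other scaling). Fa2h, which adds the hydroxyl group to the fatty acids of galactosylceramide, stood at 25.9, 37.8, 25.5 and 29.1 FPKM in the naive libraries and 4.91 to 9.26 FPKM, median 7.01 FPKM, in the cuprizone libraries. Its groups did not overlap (log2 change -2.03, SE 0.19, limma adjusted p = 4.4e-08). Ugt8a, which attaches the galactose, fell by 1.57 on the log2 scale and Cers2, which makes ceramides of very long chains, by 0.74 on the log2 scale (adjusted p = 3.7e-07 and 7.7e-07). In cholesterol synthesis 18 of 24 genes were called lower and none higher, with a median of -0.28 that was -0.31 under either other scaling. Msmo1, which removes the methyl groups of lanosterol, stood at 45.2, 43.5, 44.4 and 45.9 FPKM in the naive libraries and 27.9 to 34.4 FPKM, median 29.3 FPKM, in the cuprizone libraries. Within each group it varied little (log2 change -0.57, SE 0.06, limma adjusted p = 3.1e-07). Hmgcs1, the synthase before the rate-limiting step, fell by 0.43 on the log2 scale (adjusted p = 8.4e-07). On the export side 12 of 24 genes were called higher and 2 lower (1 lower without Naive Vehicle 2, the 3 libraries or all 4). Abca1, the pump that loads cholesterol onto apolipoproteins, stood at 3.86, 4.11, 3.98 and 3.93 FPKM in the naive libraries and 5.72 to 10.5 FPKM, median 8.13 FPKM, in the cuprizone libraries. The 2 groups did not overlap (log2 change 0.91, SE 0.11, limma adjusted p = 1.6e-06).

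Whether earlier stages of the lineage differed from mature cells in their change was not tested. Of 16 genes of oligodendrocyte precursors 1 was called higher and 1 lower, none of either without Naive Vehicle 2, none lower without the 3 libraries and 2 lower under either other scaling, and the median was 0.08. Pdgfra, the receptor by which precursors divide, stood at 6.30, 6.52, 6.41 and 6.30 FPKM in the naive libraries and 6.54 to 7.67 FPKM, median 6.82 FPKM, in the cuprizone libraries. All 8 cuprizone libraries were above the 4 naive ones, and the test did not call it (log2 change 0.11, SE 0.05, adjusted p = 0.111). Cspg4, the proteoglycan NG2 of the same cells, differed by 0.05 (adjusted p = 0.762). In newly formed oligodendrocytes, 4 of 14 genes were called higher and 3 lower, and without Naive Vehicle 2 or all 4 libraries these were 2 and 0. Without the 3 libraries they were 2 and 2, and under either other scaling 2 and 3. Bcas1, which marks newly myelinating cells, differed by 0.12 (adjusted p = 0.587) and Gpr17, a receptor of committed precursors, by 0.14 (adjusted p = 0.324). Of 23 transcription factors of the lineage 8 were called lower and 1 higher. Nkx6-2, a factor of mature cells, fell by 0.85 on the log2 scale (adjusted p = 0.000213) and Sox10, which acts throughout the lineage, by 0.53 on the log2 scale (adjusted p = 0.00133), while Olig2 differed by -0.13 (adjusted p = 0.365). Erbb3, a neuregulin receptor, fell by 0.99 on the log2 scale and Fgfr2, a fibroblast growth factor receptor of oligodendrocytes, by 0.53 on the log2 scale (adjusted p = 1.5e-06 and 0.000998). At the node of Ranvier and paranode, 4 of 20 genes were called lower, 7 under either other scaling. Cntn2, which clusters potassium channels beside the paranode, fell by 0.78 on the log2 scale (adjusted p = 3.4e-08). It is also in the list of myelin proteins and was counted there, so its fall is not a separate result.

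Of 22 transcription factors and targets of the integrated stress response 14 were called higher and none lower (1 lower under either other scaling), where 10.2% of all genes were called higher. Atf5, a transcription factor that is translated when eIF2 alpha is phosphorylated, stood at 16.5, 14.3, 12.7 and 14.5 FPKM in the naive libraries and 39.9 to 88.8 FPKM, median 77.8 FPKM, in the cuprizone libraries. The lowest cuprizone library was far above every naive one (log2 change 2.24, SE 0.20, limma adjusted p = 4.4e-08). Nupr1, a small nuclear stress protein, was at 5.57, 5.54, 7.24 and 6.76 FPKM in the naive libraries and 23.6 to 41.6 FPKM, median 36.2 FPKM, in the cuprizone libraries, with no overlap (log2 change 2.35, SE 0.22, limma adjusted p = 4.4e-08). Trib3, a pseudokinase that feeds back on the pathway, stood at 0.364, 0.362, 0.331 and 0.293 FPKM in the naive libraries and 1.38 to 3.18 FPKM, median 2.17 FPKM, in the cuprizone libraries, a log2 change of 1.60 (adjusted p = 3.1e-06). Gdf15, a stress hormone secreted by damaged cells, rose by 1.73, Atf3 by 1.63, Ddit3, the factor CHOP, by 0.65 and Atf4 itself by 0.19 (adjusted p = 4.1e-05, 8.2e-08, 2.6e-05 and 0.00414). Other targets of the same pathway were not called: Asns, asparagine synthetase, differed by -0.05 (adjusted p = 0.669) and Chac1, which degrades glutathione, by -0.04 (adjusted p = 0.874).

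Of 12 amino acid transporters 7 were called higher and 1 lower. Slc7a11, the cystine-glutamate exchanger, stood at 2.93, 3.08, 3.47 and 4.41 FPKM in the naive libraries and 4.65 to 10.9 FPKM, median 7.76 FPKM, in the cuprizone libraries, without overlap (log2 change 1.07, SE 0.14, limma adjusted p = 7.2e-06). Slc7a5 and its partner Slc3a2, which carry large neutral amino acids, rose by 0.57 and 0.56 (adjusted p = 0.000135 and 4.6e-05), and Slc6a9, a glycine transporter of glia, fell by 0.70 on the log2 scale (adjusted p = 7.5e-05). Of 16 genes of serine, one-carbon, asparagine and proline synthesis 5 were called higher, among them the mitochondrial folate enzymes Mthfd2 (0.59) and Aldh1l2 (0.71) (adjusted p = 0.00029 and 2.4e-05). Of 20 cytosolic aminoacyl-tRNA synthetases 5 were called higher, with a median of 0.10, and none of 17 mitochondrial ones was called, with a median of 0.00 (-0.02 and -0.03 under the other scalings). Of 26 genes of the unfolded protein response of the endoplasmic reticulum 1 was called higher (2 without all 4 libraries) and none lower (1 without the 3 libraries or under either other scaling), and Hspa5, its main chaperone, stood at 84.3, 77.5, 80.4 and 89.1 FPKM in the naive libraries and 65.3 to 92.7 FPKM, median 74.3 FPKM, in the cuprizone libraries, with overlapping groups (log2 change -0.12, SE 0.08, limma adjusted p = 0.338). Of 21 p53 targets 7 were called higher and 1 lower. Cdkn1a, the cell cycle inhibitor p21, stood at 9.14, 5.72, 7.59 and 8.80 FPKM in the naive libraries and 12.3 to 23.8 FPKM, median 17.6 FPKM, in the cuprizone libraries, without overlap (log2 change 1.17, SE 0.16, limma adjusted p = 9.8e-06). Of 24 targets of NRF2 4 were called higher and 4 lower, where 10.2% and 4.82% of all genes were. The counts became 5 and 2 without Naive Vehicle 2 and 6 and 2 without all 4 libraries. Hmox1, heme oxygenase, rose by 1.38 (adjusted p = 5.4e-06), while Nqo1 differed by -0.05, Gclm by 0.06 and Srxn1 by 0.05 (adjusted p = 0.817, 0.627 and 0.564). Of 21 genes of apoptosis and necroptosis 9 were called higher and none lower (1 lower after quantile normalization), among them Bcl2a1b, a survival protein of leukocytes, by 1.95 and Tnfrsf1a, the main TNF receptor, by 0.73 (adjusted p = 4.8e-05 and 6.6e-05). Bcl2a1b has near-identical neighbours, so its level is uncertain.

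Promoters from RefSeq (GRCm38.p6) were read for the 11250 tested genes that have one in the table, over the 250 bases before the start. TGATGNAA, the core of the C/EBP-ATF element that ATF4 and CHOP bind, was on either strand in 2.5% of all these promoters, in 3.7% of those of genes called higher and in 6 of 18 (33.3%) of the stress response list. Atf3 and Pck2, the mitochondrial form of PEPCK, are shown because they hold that core and were both called higher, by 1.63 and 0.24. The letters run 5′ to 3′ in the direction of transcription and capitals mark the core, which in both reads on the opposite strand. Atf3 (minus strand) is shown at chr1:191183381-191183498, with the core 110 bases before the start, and Pck2 (plus strand) at chr14:55540108-55540225, with the core 103 bases before the start.
Atf3: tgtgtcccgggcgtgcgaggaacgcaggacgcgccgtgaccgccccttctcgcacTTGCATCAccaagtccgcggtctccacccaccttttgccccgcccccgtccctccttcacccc
Pck2: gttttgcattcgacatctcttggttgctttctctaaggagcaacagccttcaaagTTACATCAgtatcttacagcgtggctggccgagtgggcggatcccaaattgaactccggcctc
Chac1, which was not called, held the core too, and Atf5, Trib3, Ddit3 and Gdf15, which were called higher, did not hold it in their windows. A match of letters is a description and not a bound site, and a missing match says nothing of the factor.

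Interferon-stimulated genes rose broadly. Of 51 effectors 46 were called higher and none lower, and of 17 interferon-induced GTPases 13, with medians of 0.98 and 0.84. Of 3 interferon genes looked at, Ifnb1 and Ifna4 were listed at 0 in all 12 libraries and Ifng in 11, with 0.0804 FPKM in the other. Of 23 interferon, receptor and sensor genes in the tested set 13 were called higher. Ddx58, the RIG-I sensor of viral RNA, stood at 2.20, 1.98, 1.85 and 2.23 FPKM in the naive libraries and 3.50 to 5.50 FPKM, median 4.28 FPKM, in the cuprizone libraries, without overlap (log2 change 0.94, SE 0.11, limma adjusted p = 1.2e-06). Zbp1, a sensor of Z-form nucleic acids, was at 0.324, 0.133, 0.295 and 0.123 FPKM in the naive libraries and 0.938 to 3.66 FPKM, median 1.34 FPKM, in the cuprizone libraries, also without overlap (log2 change 1.56, SE 0.27, limma adjusted p = 0.000231). Ifi204, a DNA-binding protein of myeloid cells and of the same list, stood at 0.187, 0.256, 0.0807 and 0.122 FPKM in the naive libraries and 1.47 to 6.56 FPKM, median 2.26 FPKM, in the cuprizone libraries, a log2 change of 2.34 (adjusted p = 1.4e-06). Among 16 IRF and STAT factors 9 were called higher. Irf7, the factor that amplifies type I interferon, stood at 1.85, 1.60, 1.57 and 1.33 FPKM in the naive libraries and 4.13 to 10.9 FPKM, median 6.63 FPKM, in the cuprizone libraries. Its groups did not overlap (log2 change 1.81, SE 0.19, limma adjusted p = 3.6e-07). Irf3, which is activated by phosphorylation, differed by -0.16 (adjusted p = 0.305).

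Among the effectors Oasl2, an antiviral protein related to oligoadenylate synthetases, stood at 2.23, 2.32, 2.24 and 2.06 FPKM in the naive libraries and 7.90 to 19.1 FPKM, median 11.6 FPKM, in the cuprizone libraries. The naive libraries lay close together and all 8 cuprizone libraries were higher (log2 change 2.23, SE 0.18, limma adjusted p = 4.6e-09). Ifit3, which binds foreign RNA, was at 6.89, 5.79, 6.45 and 5.87 FPKM in the naive libraries and 17.8 to 35.9 FPKM, median 24.9 FPKM, in the cuprizone libraries. Bst2, tetherin, which holds virus particles on the membrane, stood at 3.34, 3.42, 2.54 and 3.20 FPKM in the naive libraries and 6.82 to 20.1 FPKM, median 10.7 FPKM, in the cuprizone libraries. Both were without overlap (log2 change 1.93, SE 0.15, limma adjusted p = 4.3e-09; log2 change 1.71, SE 0.23, limma adjusted p = 6.9e-06). Of 23 genes of MHC class I and the immunoproteasome 19 were called higher and of 9 class II genes 8. H2-K1, a class I heavy chain, stood at 12.0, 12.7, 13.6 and 11.4 FPKM in the naive libraries and 22.0 to 44.2 FPKM, median 28.8 FPKM, in the cuprizone libraries without overlap (log2 change 1.24, SE 0.16, limma adjusted p = 4.3e-06). Class I heavy chains are near-identical to each other, so the split between them is uncertain. H2-Ab1, a class II beta chain, was at 1.51, 1.17, 1.32 and 1.47 FPKM in the naive libraries and 1.05 to 5.49 FPKM, median 2.91 FPKM, in the cuprizone libraries, with its lowest cuprizone library below the naive ones (log2 change 0.82, SE 0.24, limma adjusted p = 0.0207). Without Naive Vehicle 2 its adjusted p was 0.0662.

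The core of the interferon-stimulated response element, GAAA, any 2 bases and GAAA again, was on either strand of 3.1% of all promoters, 6.2% of those of genes called higher and 18.8% of those of genes at least 2-fold higher (24 of 128). It was in 15 of 39 promoters of the effectors (38.5%) and in 9 of 10 of the GTPases. Relatives such as Irgm1 and Irgm2 or Tgtp1 and Tgtp2 are among those 9 and may share promoter sequence. The core was in 3 of 19 (15.8%) of the MHC class I and immunoproteasome genes. Of the genes of disease-associated microglia 2 of 29 (6.9%) held it. TCACNCCAC, a sterol regulatory element, was in 1.2% of all promoters and in 1 of 17 of the cholesterol enzymes, that of Hmgcs1. The 4 windows below show the interferon core in 2 effectors and 2 GTPases called higher, in capitals, on the strand shown in Bst2 and Igtp and on the opposite strand in Ifit3 and Gbp7. Overlapping copies are joined, as in Bst2, which has 2. Ifit3 (plus strand, 2 copies, 156 and 122 bases before the start) is at chr19:34583318-34583471, Bst2 (minus strand) at chr8:71537532-71537657, Igtp (plus strand) at chr11:58199467-58199555 and Gbp7 (plus strand) at chr3:142530228-142530335.
Ifit3: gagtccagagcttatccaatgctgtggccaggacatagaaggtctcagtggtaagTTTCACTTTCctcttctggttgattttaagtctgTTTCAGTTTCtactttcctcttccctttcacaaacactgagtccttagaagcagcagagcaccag
Bst2: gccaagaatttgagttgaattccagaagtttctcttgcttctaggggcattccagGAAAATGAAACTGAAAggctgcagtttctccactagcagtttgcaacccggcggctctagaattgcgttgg
Igtp: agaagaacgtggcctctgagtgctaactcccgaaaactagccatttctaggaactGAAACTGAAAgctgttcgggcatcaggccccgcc
Gbp7: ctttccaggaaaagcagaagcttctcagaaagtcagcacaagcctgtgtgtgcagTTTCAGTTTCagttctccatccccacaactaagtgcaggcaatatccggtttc
Igtp and Gbp7, GTPases that attack the membranes around intracellular parasites, rose by 0.84 and 0.70 (adjusted p = 7.8e-06 and 4.3e-05). Oasl2, the tested member of the effector list with the largest change, had no such letters in its window.

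Of 38 effector genes of the disease-associated state, which microglia enter around dying cells, 34 were called higher and none lower, with a median of 1.60. Clec7a, a lectin receptor for glucans and debris, stood at 0.228, 0.174, 0.189 and 0.193 FPKM in the naive libraries and 4.48 to 23.3 FPKM, median 8.11 FPKM, in the cuprizone libraries. Every cuprizone library was above every naive one (log2 change 3.86, SE 0.29, limma adjusted p = 2.9e-09). Itgax, the integrin CD11c, was at 0.0663, 0.106, 0.0414 and 0.0850 FPKM in the naive libraries and 2.33 to 9.82 FPKM, median 4.42 FPKM, in the cuprizone libraries. Lyz2, the lysozyme of macrophages, stood at 5.42, 3.21, 3.54 and 3.88 FPKM in the naive libraries and 12.0 to 49.9 FPKM, median 23.4 FPKM, in the cuprizone libraries. Both were without overlap (log2 change 3.23, SE 0.22, limma adjusted p = 1e-09; log2 change 2.58, SE 0.27, limma adjusted p = 3.5e-07). Cst7, an inhibitor of lysosomal proteases, was near 0 in naive mice and ranged over 3.14 to 54.3 FPKM in cuprizone mice, a spread that gives its log2 change of 3.96 an SE of 0.56. Of 22 homeostatic genes 11 were called higher and none lower, and 1 was called lower without Naive Vehicle 2 or without all 4 libraries. Csf1r, the receptor on which microglia depend, was at 23.9, 19.4, 21.5 and 17.9 FPKM in the naive libraries and 30.3 to 61.2 FPKM, median 36.5 FPKM, in the cuprizone libraries. All cuprizone libraries were higher (log2 change 0.93, SE 0.14, limma adjusted p = 2.8e-05). P2ry12, a purine receptor of resting microglia, stood at 20.5, 19.2, 21.7 and 17.7 FPKM in the naive libraries and 17.3 to 22.0 FPKM, median 19.7 FPKM, in the cuprizone libraries. Tmem119, a surface protein of the same cells, was at 7.92, 5.87, 6.30 and 5.97 FPKM in the naive libraries and 5.91 to 9.86 FPKM, median 6.53 FPKM, in the cuprizone libraries. Neither was called and the groups overlapped (log2 change -0.02, SE 0.07, limma adjusted p = 0.908; log2 change 0.09, SE 0.12, limma adjusted p = 0.663).

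Of 16 chemokines 9 were called higher. Cxcl10, which draws T cells and is induced by interferon, stood at 0.153, 0.5, 0.808 and 0.151 FPKM in the naive libraries and 3.60 to 11.5 FPKM, median 6.86 FPKM, in the cuprizone libraries, without overlap (log2 change 3.09, SE 0.25, limma adjusted p = 6.1e-09). Ccl3 and Ccl4, chemokines that attract monocytes and lymphocytes, rose by 2.76 and 2.39 and Ccl6 by 2.42 (adjusted p = 1e-07, 4.4e-08 and 9.1e-07). Of the CSF1 receptor axis Csf1, one ligand, rose by 0.41 (adjusted p = 0.0097) and Il34, the other, differed by -0.01 (adjusted p = 0.97). Of 24 receptors for chemokines and cytokines 15 were called higher, among them Osmr, the oncostatin M receptor, by 1.76 and Tgfbr1 by 0.85 (adjusted p = 5.9e-08 and 7.1e-06). Of 21 Toll-like receptors, inflammasome genes and adaptors 17 were called higher. Tlr2, the receptor for bacterial lipoproteins, stood at 0.523, 0.592, 0.289 and 0.361 FPKM in the naive libraries and 0.972 to 4.49 FPKM, median 2.11 FPKM, in the cuprizone libraries. Cd14, a coreceptor, was at 1.19, 1.22, 0.894 and 1.03 FPKM in the naive libraries and 2.63 to 6.80 FPKM, median 3.72 FPKM, in the cuprizone libraries. Neither overlapped between groups (log2 change 1.54, SE 0.22, limma adjusted p = 1.9e-05; log2 change 1.49, SE 0.15, limma adjusted p = 2.4e-07). Of 18 NF-kappaB subunits and feedback inhibitors 5 were called higher, with a median of 0.19.

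All 7 genes of the phagocyte NADPH oxidase were called higher. Cybb, its catalytic subunit, stood at 0.162, 0.0834, 0.204 and 0.0971 FPKM in the naive libraries and 0.630 to 2.56 FPKM, median 1.38 FPKM, in the cuprizone libraries, without overlap (log2 change 1.61, SE 0.18, limma adjusted p = 1e-06). Of 23 genes of B cell receptor, Fc receptor and BTK signalling 15 were called higher and none lower, and of 7 Fc receptors 6. Btk, the target of the inhibitor given to the other mice, stood at 0.356, 0.351, 0.356 and 0.272 FPKM in the naive libraries and 0.688 to 1.69 FPKM, median 0.838 FPKM, in the cuprizone libraries. Plcg2, the phospholipase that it phosphorylates, was at 1.14, 1.12, 1.06 and 0.774 FPKM in the naive libraries and 1.47 to 3.43 FPKM, median 1.97 FPKM, in the cuprizone libraries. Both were without overlap (log2 change 0.80, SE 0.15, limma adjusted p = 0.000627; log2 change 0.76, SE 0.13, limma adjusted p = 0.000224). Of 24 complement genes 12 were called higher and 1, the membrane inhibitor Cd59a, lower (adjusted p = 0.00761, and 0.0589 without Naive Vehicle 2; none was lower without the 3 libraries or all 4). C4b, which tags targets for uptake, stood at 6.13, 6.36, 5.65 and 4.75 FPKM in the naive libraries and 15.8 to 28.9 FPKM, median 21.8 FPKM, in the cuprizone libraries. C1qa, a chain of the initiating complex, was at 28.3, 24.1, 24.9 and 22.8 FPKM in the naive libraries and 45.9 to 167 FPKM, median 65.4 FPKM, in the cuprizone libraries. The groups were apart for both (log2 change 1.84, SE 0.13, limma adjusted p = 1e-09; log2 change 1.58, SE 0.24, limma adjusted p = 4.9e-05). In the lysosome 12 of 16 cathepsins and cystatins were called higher and 1 lower (none lower without Naive Vehicle 2, the 3 libraries or all 4), and 13 of 42 hydrolases and membrane proteins higher. Ctss, a protease that also trims the class II invariant chain, stood at 33.3, 32.3, 32.6 and 31.2 FPKM in the naive libraries and 67.7 to 205 FPKM, median 94.2 FPKM, in the cuprizone libraries, without overlap (log2 change 1.71, SE 0.21, limma adjusted p = 2.8e-06). Psap and Lamp1, general lysosomal proteins, differed by 0.03 and 0.05 (adjusted p = 0.71 and 0.569).

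**Figure D3:**
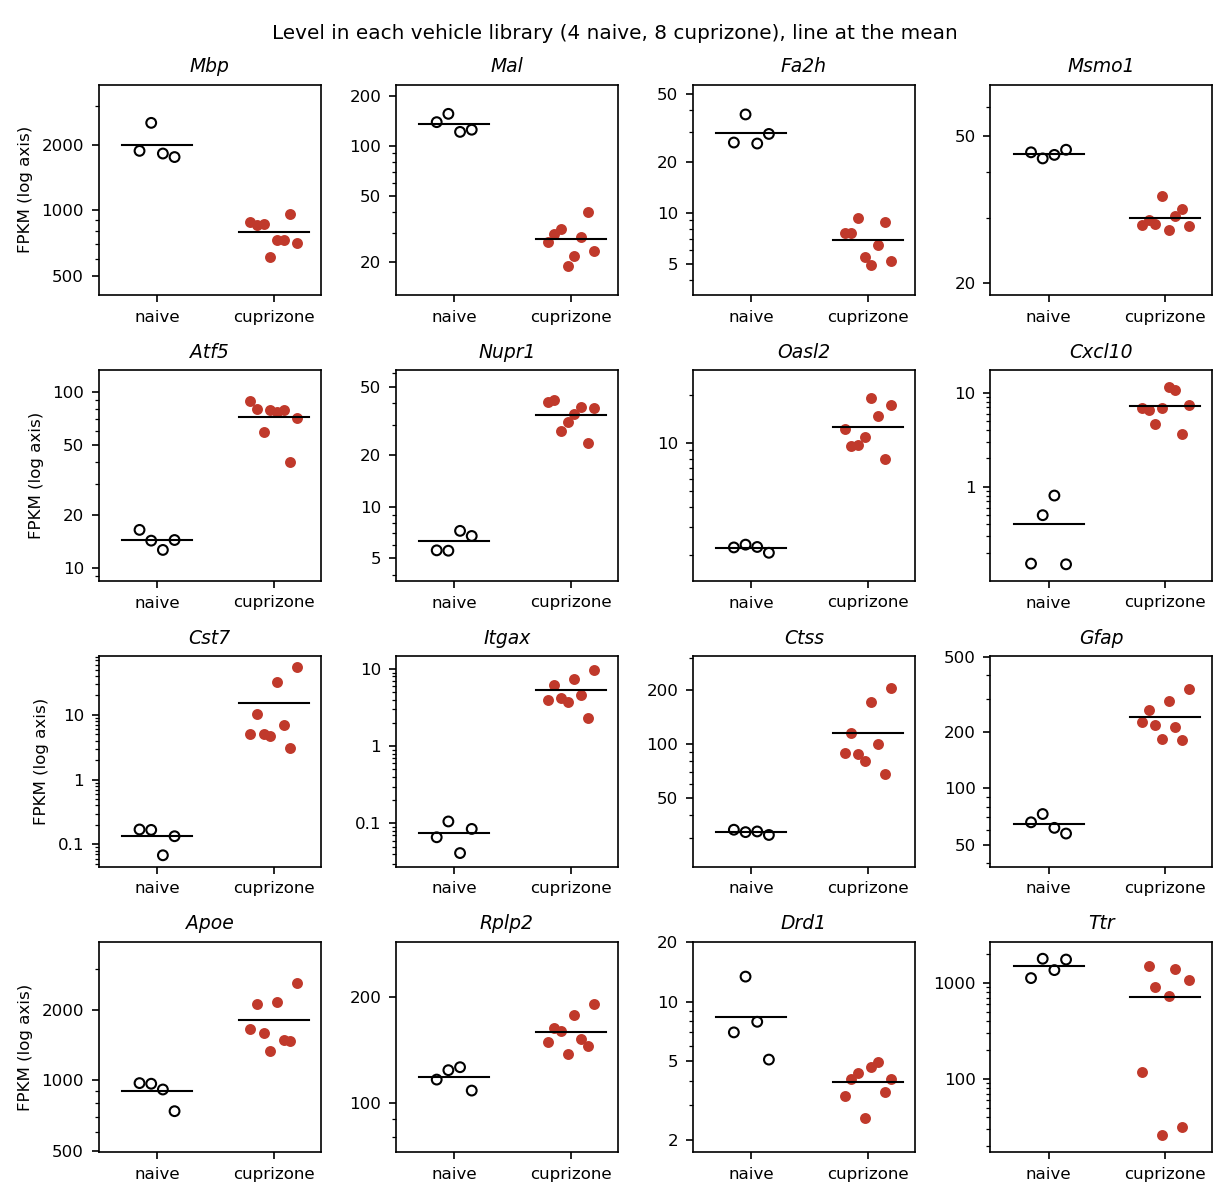
FPKM (log axis, a separate range in each panel) of 16 genes in each of the 4 naive (open) and 8 cuprizone (red) vehicle libraries, with a line at the group mean. The groups are apart for the myelin, cholesterol, stress, interferon, microglial and astrocyte genes, for Rplp2 and for Drd1. Drd1 is highest in Naive Vehicle 2, the library rich in striatal RNA. Ttr shows the libraries poor in choroid plexus RNA, with 3 cuprizone libraries at 26.0 to 117 FPKM.

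Markers of blood-borne leukocytes other than Cd4 were low in both groups, none above 0.874 FPKM in any library. Cd3e of T cells did not exceed 0.125 FPKM, Ms4a1 of B cells 0.111 FPKM and Ccr2 of monocytes 0.198 FPKM in any of the 12 libraries, and Ly6g of neutrophils was listed at 0 in all of them. Ly6c2 of monocytes had a median of 0.118 FPKM in naive and 0.259 FPKM in cuprizone libraries. The medians went the other way for Cd79a of B cells, 0.285 and 0.212 FPKM, and S100a8 of neutrophils, 0.207 and 0.134 FPKM. Of the leukocyte lists, 1 of 11 neutrophil genes, 5 T and NK cell genes and 4 B and plasma cell genes reached the filter of 0.5 FPKM. Csf3r, the receptor for granulocyte colony-stimulating factor that microglia express too, rose by 1.35 (adjusted p = 1.9e-05), the chemokine Ccl5 by 1.88 (adjusted p = 1.9e-06) and Cd22, a sialic acid receptor of B cells and microglia, by 1.46 (adjusted p = 3.1e-06). Cd4 fell by 1.05 on the log2 scale (adjusted p = 0.00885). It was highest in Naive Vehicle 2, at 6.31 FPKM, the library rich in striatal RNA, and without it the adjusted p was 0.0761. Of 8 genes of border macrophages and monocytes 4 were called higher, 2 without the 3 libraries poor in choroid plexus RNA and the one rich in striatal RNA.

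Reactive astrocyte genes were raised in 27 of 33 members, with none lower and a median of 0.87. Gfap stood at 66.0, 73.0, 61.6 and 57.5 FPKM in the naive libraries and 181 to 337 FPKM, median 220.5 FPKM, in the cuprizone libraries, without overlap (log2 change 1.85, SE 0.13, limma adjusted p = 1e-09). Serpina3n, a secreted serine protease inhibitor, was at 8.51, 9.94, 7.49 and 8.67 FPKM in the naive libraries and 21.4 to 55.4 FPKM, median 32.2 FPKM, in the cuprizone libraries. Vim, vimentin, stood at 16.1, 20.3, 21.1 and 19.1 FPKM in the naive libraries and 35.3 to 71.7 FPKM, median 46.5 FPKM, in the cuprizone libraries. All cuprizone libraries were above the naive ones for both (log2 change 1.94, SE 0.17, limma adjusted p = 3.3e-08; log2 change 1.36, SE 0.16, limma adjusted p = 1.6e-06). Lcn2, a secreted siderophore-binding protein, was far more variable, at 0.110, 0.0399, 0.329 and 0.180 FPKM in the naive libraries and 0.213 to 18.1 FPKM, median 3.39 FPKM, in the cuprizone libraries. Its lowest cuprizone library lay within the naive range (log2 change 2.42, SE 0.69, limma adjusted p = 0.016). Of 27 genes of transport and metabolism in astrocytes, 5 were called higher and 2 lower (1 lower without Naive Vehicle 2, the 3 libraries or all 4). Slc1a3, the glutamate transporter GLAST, rose by 0.51 (adjusted p = 5.5e-06), while its relative Slc1a2 differed by 0.03 and the water channel Aqp4 by 0.24 (adjusted p = 0.756 and 0.127). Without Naive Vehicle 2 the adjusted p of Aqp4 was 0.0123. Gja1, the main astrocyte connexin, fell by 0.23 on the log2 scale (adjusted p = 0.0293), a call lost in 7 of 22 alternative fits, among them those without Naive Vehicle 2 (adjusted p = 0.0878), Naive Vehicle 4 (0.0708) or Cuprizone Vehicle 8 (0.0537).

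Of 45 growth factors and receptors 10 were called higher and 5 lower (8 lower after quantile normalization). Igf1, a growth factor for oligodendrocytes that microglia secrete, stood at 0.798, 1.15, 1.10 and 1.12 FPKM in the naive libraries and 1.79 to 5.81 FPKM, median 3.21 FPKM, in the cuprizone libraries, without overlap (log2 change 1.26, SE 0.20, limma adjusted p = 8.2e-05). Fgf2, a mitogen of precursors, rose by 0.47 and Igfbp3, which binds IGF1, by 0.90 (adjusted p = 9.4e-05 and 1.9e-06). Of 47 collagens, laminins and proteoglycans 6 were called higher and 1 lower (none lower without Naive Vehicle 2, the 3 libraries or all 4). Calls in either direction made up 14.9% of that list and 15% of all genes. Spp1, osteopontin, stood at 3.66, 6.84, 4.94 and 4.00 FPKM in the naive libraries and 10.1 to 89.6 FPKM, median 18.4 FPKM, in the cuprizone libraries, without overlap but spread widely among cuprizone mice (log2 change 2.18, SE 0.44, limma adjusted p = 0.00102), and Col1a1 differed by 0.14 (adjusted p = 0.482). Mmp12, the macrophage elastase, was at 0, 0.0228, 0.0461 and 0.0221 FPKM in the naive libraries and 0.341 to 1.76 FPKM, median 0.834 FPKM, in the cuprizone libraries. It was near 0 in naive mice and higher in every cuprizone library (log2 change 1.36, SE 0.18, limma adjusted p = 5e-06). Of 23 endothelial genes 4 were called higher and 2 lower (1 lower without the 3 libraries or all 4): Icam1, an adhesion molecule for leukocytes, rose by 0.97 (adjusted p = 9.3e-05), while Cldn5 of the tight junction differed by -0.11 (adjusted p = 0.394). None of 14 fibroblast and meningeal genes was called (1 lower under either other scaling) and 1 of 14 pericyte and smooth muscle genes. Of 37 cell cycle genes 4 were called higher (10.8%), near the 10.2% of all genes. The count was 9 without the 3 libraries poor in choroid plexus RNA and the one rich in striatal RNA. Ccnd1, cyclin D1, rose by 0.43 (adjusted p = 1.4e-05) and Top2a, a marker of dividing cells, differed by 0.30 (adjusted p = 0.264). Top2a was called higher without the 3 libraries (0.51, adjusted p = 0.0373) and without all 4 (0.56, adjusted p = 0.0426).

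Ribosomal protein genes moved by small amounts in 1 direction. Of 80, 47 were called higher and none lower, with a median of 0.19, and 39 and 41 were called under the other scalings, with medians of 0.16 and 0.15. Rps4x, of the small subunit, stood at 153, 155, 155 and 143 FPKM in the naive libraries and 174 to 203 FPKM, median 182 FPKM, in the cuprizone libraries, the groups not overlapping (log2 change 0.29, SE 0.04, limma adjusted p = 5e-05). Of 75 nuclear subunits of the respiratory chain 2 were called higher and 1 lower (1 and 4 after median ratio scaling, 2 and 3 after quantile normalization, 1 and 1 without the 3 libraries, and 1 and 0 without Naive Vehicle 2 or all 4), and none of 13 mitochondrially encoded ones, with medians of -0.01 and -0.09. For copper, the metal that cuprizone binds, 3 of 21 transport and storage genes were called higher (14.3%, against 10.2% of all genes). The count was 2 under either other scaling, and 1 was lower after quantile normalization. Cp, the copper oxidase ceruloplasmin, rose by 0.45 (adjusted p = 0.00494) and Mt1, a metallothionein, differed by 0.13 (adjusted p = 0.321). Of 18 iron genes 6 were called higher and 1 lower (none lower without Naive Vehicle 2, without all 4 libraries or after quantile normalization). Slc11a1, an iron pump of phagosomes, rose by 1.58 (adjusted p = 9.5e-06) and Ftl1, the light chain of ferritin, stood at 209, 194, 203 and 208 FPKM in the naive libraries and 232 to 347 FPKM, median 258 FPKM, in the cuprizone libraries. The light chain was higher without overlap (log2 change 0.38, SE 0.09, limma adjusted p = 0.00305), and the heavy chain Fth1 was lower as deposited (-0.20) and at -0.03 after quantile normalization. Of 26 genes of glycolysis and lactate 5 were called higher (3 without Naive Vehicle 2 or all 4 libraries), among them Hk2, an inducible hexokinase, by 0.93 (adjusted p = 3e-05).

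None of 18 general neuron genes was called (2 lower under either other scaling), with a median of 0.01, and Snap25, a synaptic fusion protein, stood at 997, 832, 1069 and 1088 FPKM in the naive libraries and 916 to 1099.8 FPKM, median 1006 FPKM, in the cuprizone libraries. Of 17 markers of striatal neurons 16 were called lower, 7 without Naive Vehicle 2, 9 without the 3 libraries poor in choroid plexus RNA and 1 without all 4. Drd1, the dopamine receptor of one class of these neurons, stood at 7.00, 13.4, 7.92 and 5.10 FPKM in the naive libraries and 2.60 to 4.97 FPKM, median 4.07 FPKM, in the cuprizone libraries, the highest value being that of Naive Vehicle 2. Its groups did not overlap, and its call was lost in 1 of 22 alternative fits, that without all 4 libraries. The mean level of the striatal list was higher in every naive library than in any cuprizone library. Of 20 choroid plexus genes 3 were called lower (5 and 4 under the other scalings), none without Naive Vehicle 2, without the 3 libraries poor in that tissue or without all 4. Of 19 genes of cilia and ependyma 4 were called lower, 1 without Naive Vehicle 2 and none without the 3 libraries or all 4. The part of these libraries in other results was not tested beyond leaving them out. Of 30 immediate early genes 5 were called higher and 3 lower, and without those 4 libraries 3 and 3. Btg2, an antiproliferative gene induced by activity, stood at 11.0, 12.5, 14.6 and 11.6 FPKM in the naive libraries and 5.84 to 7.76 FPKM, median 6.78 FPKM, in the cuprizone libraries, without overlap (log2 change -0.82, SE 0.08, limma adjusted p = 1.4e-07), and Egr1, a factor induced within minutes, differed by 0.11 (adjusted p = 0.496). Of 19 clock genes 6 were called higher and 1 lower (2 lower under either other scaling), and without those 4 libraries 3 and 1. Per1 and Per2, the period repressors, rose by 0.43 and 0.49 (adjusted p = 7.4e-05 and 5.7e-05). In the BTKi libraries the change was -0.24 for Per1 and 0.05 for Per2 (adjusted p = 0.0296 and 0.781). The time of day at which tissue was taken is not given in the labels.

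The 8 cuprizone libraries were not alike. For the 173 genes at least 2-fold higher, Cuprizone Vehicle 8 held the highest value of the 8 in 126 and Cuprizone Vehicle 5 in 32, while Cuprizone Vehicle 7 held the lowest in 140 and Cuprizone Vehicle 4 in 19. The mean of the microglial effector list, in log2 units around the mean of each gene over the 12 libraries, was 1.464 in Cuprizone Vehicle 8 and -0.091 in Cuprizone Vehicle 7, against -1.105 to -1.007 in the naive libraries. The same libraries were at the ends for interferon effectors, with 0.80 and -0.13, reactive astrocyte genes, with 0.71 and -0.10, and chemokines, with 0.77 and 0.02. For the interferon-induced GTPases Cuprizone Vehicle 5 was highest, at 0.72. For myelin the order was reversed in part. Its list was highest in Cuprizone Vehicle 7, at -0.10, and low in Cuprizone Vehicle 5 and 8, at -0.54 and -0.53. It was lowest in Cuprizone Vehicle 4, at -0.76, where the microglial list was 0.07. In Cuprizone Vehicle 2 the myelin list was at -0.29 and the microglial list at 0.63. A relation between the 2 lists was not tested. Of the 68 genes at least 2-fold lower, Cuprizone Vehicle 4 held the lowest value in 42 and Cuprizone Vehicle 7 the highest in 26. The stress response list ranged from -0.002 to 0.326 among cuprizone libraries and from -0.457 to -0.385 in naive ones. Cuprizone Vehicle 4 and 7 are also 2 of the 3 libraries poor in choroid plexus RNA, and the part of dissection in this spread was not tested. Gene by gene, Ttr, Kcnj13 and Folr1 of the choroid plexus and Lcn2 were the most variable protein-coding genes among cuprizone mice at a mean of 5 FPKM or more, and the other 6 of the top 10 were pseudogenes of ribosomal protein genes or genes without a symbol of function, in which near-identical copies can share fragments.

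**Figure D4:**
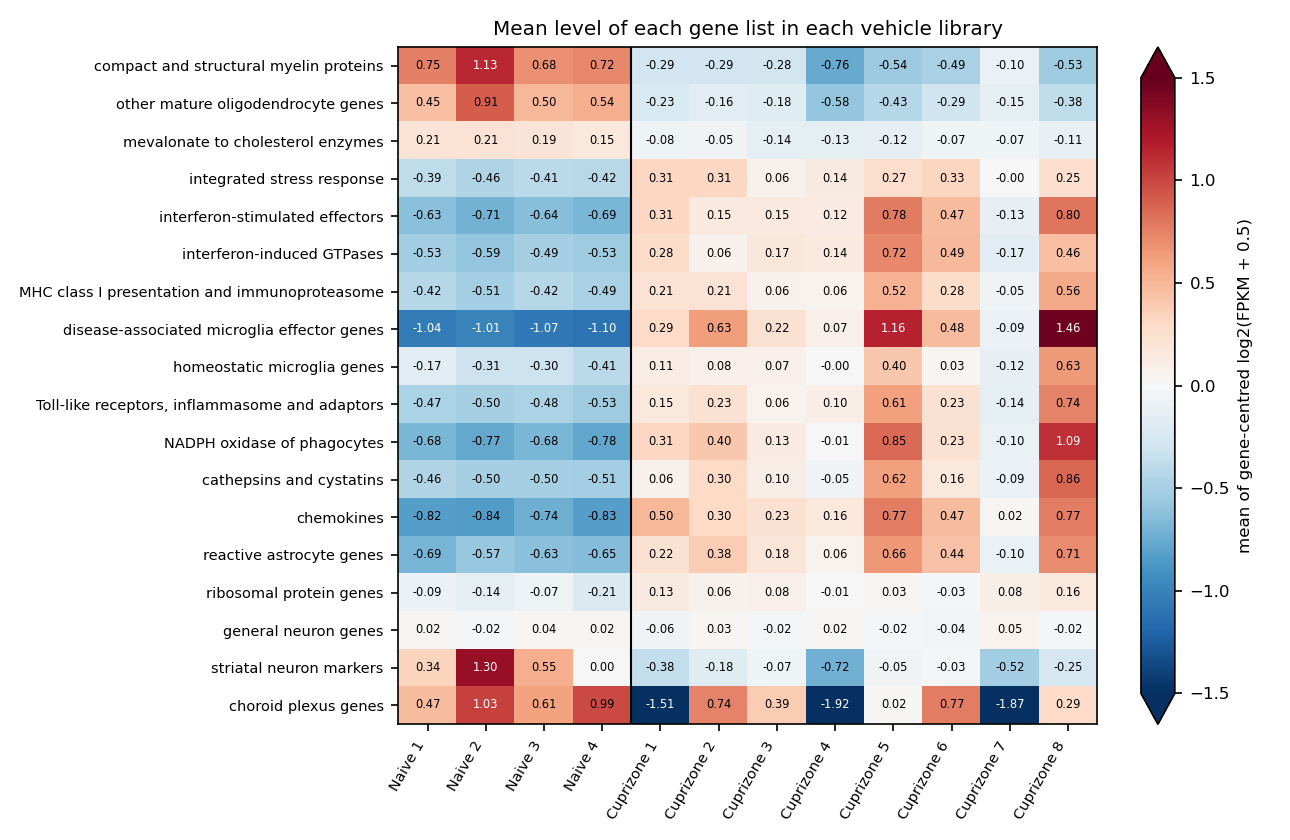
Mean of the gene-centred log2(FPKM + 0.5) of each list (rows) in each of the 12 vehicle libraries (columns, naive left of the line), printed in each cell and coloured from blue (low) to red (high). Cuprizone 5 and 8 are the 2 highest for the disease-associated microglia and interferon effector lists, Cuprizone 7 is the lowest of the 8 for both, and Cuprizone 1, 4 and 7 are at -1.51, -1.92 and -1.87 for the choroid plexus list.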

How the data were processed

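Polyadenylated RNA of mouse corpus callosum was extracted with Qiagen RNeasy Micro columns, and libraries were made with TruSeq stranded chemistry, per the labels' protocols. The authors deposited 1 table of FPKM for 54446 gene IDs in 24 libraries. The aligner, counter and genome build were not given in the sources used here. Symbols and gene classes came from GENCODE M21, in which 53229 IDs were found with their version. Depth was read from the spacing of low FPKM values, of which 91.0 to 92.5% were whole fragments within 0.1, and no count test was run.

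Genes with a mean of at least 0.5 FPKM over the 24 libraries (15216) were tested with limma 3.58.1 in R 4.3.3 on log2(FPKM + 0.5), where added 0.5 shrinks the changes of genes with low values. All 4 groups entered 1 model with a trended prior, p-values were adjusted by Benjamini and Hochberg over all genes tested, and a call is an adjusted p under 0.05. Every log2 change in the text is on that scale, cuprizone minus naive, and every adjusted p is from this limma fit unless an alternative is named. The fit was tested on simulated data. Lists are described by counts and medians only, to be read against the 10.2% of all genes called higher and the 4.82% called lower. Summaries and figures used Python 3.11.15, pandas 2.3.3, numpy 2.4.6, scipy 1.17.1 and matplotlib 3.10.9.

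The members and lists were chosen with earlier results of these data known. Genes were named by rule: the 20 largest rises and 15 largest falls without overlap, up to 4 called members a list by adjusted p and up to 2 in the minority direction, the most abundant uncalled member of lists mostly uncalled, the 10 most variable genes, 5 noncoding genes, the 5 largest gains and losses in FPKM and up to 5 genes of the difference between effects. Another 67 genes were named after their values were seen. Some genes are not reported here. Alternatives were 2 other pseudocounts, 2 other filters, 2 scalings, the 12 vehicle libraries alone, a replicate block and each of the 12 libraries left out. Leaving out the 3 libraries poor in choroid plexus RNA, alone or with the one rich in striatal RNA, was chosen after seeing the data.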

Additional observations from a re-analysis of the deposited data

Results flagged for a closer look

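Dixon's criterion was applied to 330 groups of 4 or 8 libraries, which cover only some of the 388 named genes. In 19 of these groups (5.76%) 1 library lay far from the others, which chance flags in about 1 in 20 groups. In Naive Vehicle 1 this was Igf1 at 0.798 FPKM, Col1a1 at 1.17 FPKM, Cst3 at 1012 FPKM and Hk2 at 0.644 FPKM. In Naive Vehicle 2 this was Rbfox3 at 110.0 FPKM, Serpinb1a at 12.3 FPKM, Sox10 at 35.7 FPKM, Srxn1 at 30.9 FPKM, Mag at 191 FPKM and S1pr5 at 13.6 FPKM. In Naive Vehicle 3 this was Dusp6 at 24.96 FPKM and Hmox1 at 2.18 FPKM. In Naive Vehicle 4 this was Rps4x at 143 FPKM and Btk at 0.272 FPKM. In Cuprizone Vehicle 4 this was Cers2 at 14.3 FPKM and Mthfd2 at 3.79 FPKM. In Cuprizone Vehicle 6 this was Rbfox3 at 115 FPKM and Mt1 at 160.3 FPKM. In Cuprizone Vehicle 8 this was Ccnd1 at 16.0 FPKM.

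The cuprizone effect differed between mice given vehicle and mice given BTKi for 19 genes (0.125% of those tested) by the interaction contrast of the limma fit. Below, each value is the log2 change under vehicle minus that under BTKi. It was -0.72 for Btg2, which was lower under vehicle (-0.82) and at -0.11 under BTKi, and positive for the other 18. It was 1.03 for Arc, 0.95 for Frmd6, 0.90 for Nr4a1, 0.81 for Klf10, 0.70 for Junb and 0.67 for Dusp5. It was 0.67 for Per1, 0.62 for Trib1, 0.54 for Plk3, 0.54 for Dusp6, 0.52 for Phf13 and 0.44 for Stk40. It was 0.43 for Midn, 0.42 for Nab2, 0.39 for Sntb2, 0.38 for Hivep3, 0.38 for Tet3 and 0.29 for 1810055G02Rik. Several of these are immediate early genes, such as Arc, which stood at 0.17 under vehicle and -0.87 under BTKi, and Nr4a1, at 0.06 and -0.84. The count of 19 fell to 7 without the 3 libraries poor in choroid plexus RNA.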

How the results depend on the processing

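With 4 naive libraries, 1 library can move counts of calls. Leaving out each of the 12 libraries in turn gave 1825 to 2302 genes called, 1220 to 1556 higher and 489 to 805 lower, 142 to 202 at least 2-fold higher and 42 to 96 at least 2-fold lower. The same runs gave 1163 to 1294 genes called under BTKi and 11 to 21 for the difference between the effects. A fit of only the 12 vehicle libraries, which takes no spread from the BTKi libraries, called 1797 genes in place of 2288. Of these, 1222 were higher and 575 lower, and the total was below every one from leaving out 1 library. Changes of 2-fold or more numbered 172 higher and 64 lower in that fit, and 30 of the 388 named genes lost the call. At least 2-fold higher genes numbered 110 with a filter of 2 FPKM, which tests fewer genes. At least 2-fold lower genes numbered 42 without Naive Vehicle 2 and 39 without it and the 3 libraries poor in choroid plexus RNA, and 463 genes were then called lower in place of 733. The difference between the effects was called for 11 genes without Naive Vehicle 2, 12 without Naive Vehicle 4, 7 without the 3 libraries, 8 without all 4 and 9 with the replicate block; the cause was not tested.

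Naive and cuprizone libraries share the replicate numbers 1 to 4. Deviations of same-numbered libraries correlated at 0.282, 0.267, -0.0254 and -0.00168. For Naive Vehicle 1 and 2 the best-correlated cuprizone library was the same-numbered one. For Naive Vehicle 3 it was Cuprizone Vehicle 1 and for Naive Vehicle 4 Cuprizone Vehicle 6. Whether the numbers pair the samples cannot be told from these values. With the number as a replicate block 1859 genes were called, 1278 higher and 581 lower.

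Of 388 named genes 310 were called, and 250 of these kept the call in every alternative in which they were tested, 22 for 330 genes and 21 for the 58 that fail the filter of 2 FPKM. None changed direction after a call. The other 60 lost the call in at least 1 alternative, most often without the 3 libraries and Naive Vehicle 2 (46 genes).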

Other observations

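Genes outside the 76 lists also changed at least 2-fold. Among the higher ones were surface proteins of leukocytes, a class that includes microglia. Which cells held their RNA was not tested. Ptprc, the pan-leukocyte phosphatase CD45, had a mean of 0.710 FPKM in naive and 3.16 FPKM in cuprizone libraries (log2 change 1.54, SE 0.19, limma adjusted p = 2.9e-06). Cd48 and Cd84, adhesion receptors of the SLAM family, rose by 1.95 and 1.90 (limma adjusted p = 1.5e-07 and 1.8e-06). Mpeg1, the pore-forming protein of macrophages, had means of 5.06 and 26.1 FPKM and rose by 2.08 (limma adjusted p = 5.7e-06). Slc15a3, a peptide transporter of the endolysosome, rose by 1.78 and Gpr84, a fatty acid receptor of myeloid cells, by 1.14 (limma adjusted p = 2.3e-06 and 0.00186). Tgm1, a transglutaminase, went from a mean of 0.0513 FPKM to 1.72 FPKM, a log2 change of 1.90 (limma adjusted p = 1.4e-05).

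Among the lower ones were genes of other functions than myelin structure. Carns1, which makes carnosine, had means of 4.02 and 1.18 FPKM and fell by 1.42 on the log2 scale (limma adjusted p = 1.5e-09). Efhd1, a mitochondrial calcium-binding protein, had means of 18.6 and 6.54 FPKM and fell by 1.44 (limma adjusted p = 4.9e-08). Adamtsl4, a secreted matrix protein, fell by 1.60, and the lincRNA 1700047M11Rik fell by 1.42, from a mean of 13.7 FPKM to 4.84 FPKM (limma adjusted p = 5.5e-08 and 3.3e-06).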
